A study of Mus musculus with 93 samples.

Results

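Liver RNA of WSB/EiJ mice was compared with that of C57BL/6J mice on a western diet (WD), in 6 and 8 male mice. The members are all mice of these strains on WD, 14 of the 93 mice in the series, and the comparison covered the 19110 genes that passed a filter on low counts, of 53465 listed. The series measured liver messenger RNA by sequencing in 7 inbred strains on WD or a matched control diet (CD), and the comparison asks how the livers of these strains differ on the same diet. All mice, controls included, were moved to 30°C (thermoneutrality) at 6 wk of age, started their diet at 7 wk, and were killed at 24 wk after 17 wk on it. WD supplied 40% of its energy as fat and CD 10%. C57BL/6J is a classical laboratory strain, of which 5 mice on WD came from cohort 1 and 3 from cohort 2. WSB/EiJ is a wild-derived inbred strain, of which 4 mice on WD came from cohort 6 and 2 from cohort 7. The cohorts of the strains do not overlap, and cohorts 6 and 7 held no other strain, so strain and cohort cannot be told apart in any difference given here. On CD there were 8 C57BL/6J mice, 3 from cohort 1 and 5 from cohort 2. The 6 WSB/EiJ mice on CD comprised 4 from cohort 6 and 2 from cohort 7. The CD groups shared no mouse with the WD groups.

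A diet rich in fat and cholesterol loads hepatocytes with lipid. Hepatocytes make fatty acids and cholesterol under the SREBP transcription factors, store triglyceride in droplets whose coat proteins are controlled in part by PPARG, burn fatty acids in mitochondria and peroxisomes under PPARA, export lipid on apolipoproteins, and dispose of cholesterol as bile acids. Macrophages, stellate cells, and recruited leukocytes respond to the loaded hepatocytes with cytokines, interferon-driven genes, and collagen. The amount of each of these transcripts differs among mouse strains even without a dietary challenge.

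Reads on genes numbered 48126749 to 49112273 per mouse in C57BL/6J and 42719337 to 47587151 in WSB/EiJ. All reads were mapped to the C57BL/6J genome. Unmapped reads made up 2.14 to 3.87% in C57BL/6J and 3.32 to 10.3% in WSB/EiJ, a difference of the means of 4.60 percentage points (two-sided exact permutation test, adjusted p = 0.0040 over 4 read classes), and the part of this gap in the gene values was not tested. Levels are given as CPM, read counts scaled to a common library size, and Nnt, which carries a deletion in C57BL/6J, ranged from 118 to 152 CPM (median 135) in WSB/EiJ and from 55.9 to 86.4 CPM (median 76.0) in C57BL/6J, and all 8 C57BL/6J mice lay below all 6 WSB/EiJ mice. Xist was near 0 and Ddx3y was present in every mouse, in keeping with the male label. Spearman correlations of log2 levels over genes were 0.983 to 0.991 between WSB/EiJ mice, 0.968 to 0.993 between C57BL/6J mice, and 0.927 to 0.957 across the strains. C57BL/6J mouse 3 correlated least with its group (0.968 to 0.982), and WSB/EiJ mouse 4, with 3.32% unmapped reads against at least 5.67% in the other WSB/EiJ mice, had acute phase levels far above its group. Counts that rest on these mice are given without them where that changed a count of 5 or more genes by over 1.5 times. Because the tissue was sequenced in bulk, fewer cells of a type and less RNA per cell cannot be told apart.

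Of the 19110 genes tested, 10267 (53.7%) differed between the strains on WD at an adjusted p below 0.05 with limma-voom and are called DEGs here. WSB/EiJ was higher for 5121 (26.8%) and lower for 5146 (26.9%), and these shares are the background for each count of list members below. The median log2 fold change over all genes tested was 0.01, where a positive value means higher in WSB/EiJ. Most differences were small. The median absolute log2 fold change of the DEGs was 0.734, and 3990 DEGs differed at least 2-fold, of which 1319 were higher and 2671 lower in WSB/EiJ. At 8-fold or more there were 757 DEGs, with 354 higher and 403 lower. For 4556 genes (23.8%) the 6 WSB/EiJ mice did not overlap with the 8 C57BL/6J mice, 2248 with WSB/EiJ above and 2308 with WSB/EiJ below. The split into higher and lower calls depended on the genes admitted, the scaling, and the test. With all 41553 genes that had any count, 69.7% of 19484 DEGs were higher in WSB/EiJ, against 49.9% here. Upper-quartile normalization gave 42.3% and DESeq2 45.6%. With genes of any count the median log2 fold change over all genes was 0.16. Yet fewer genes had reads in WSB/EiJ, 21834 to 22370 per mouse, against 22976 to 25421 in C57BL/6J. The part of genes with few or no reads in the 69.7% was not tested.

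**Figure D1:**
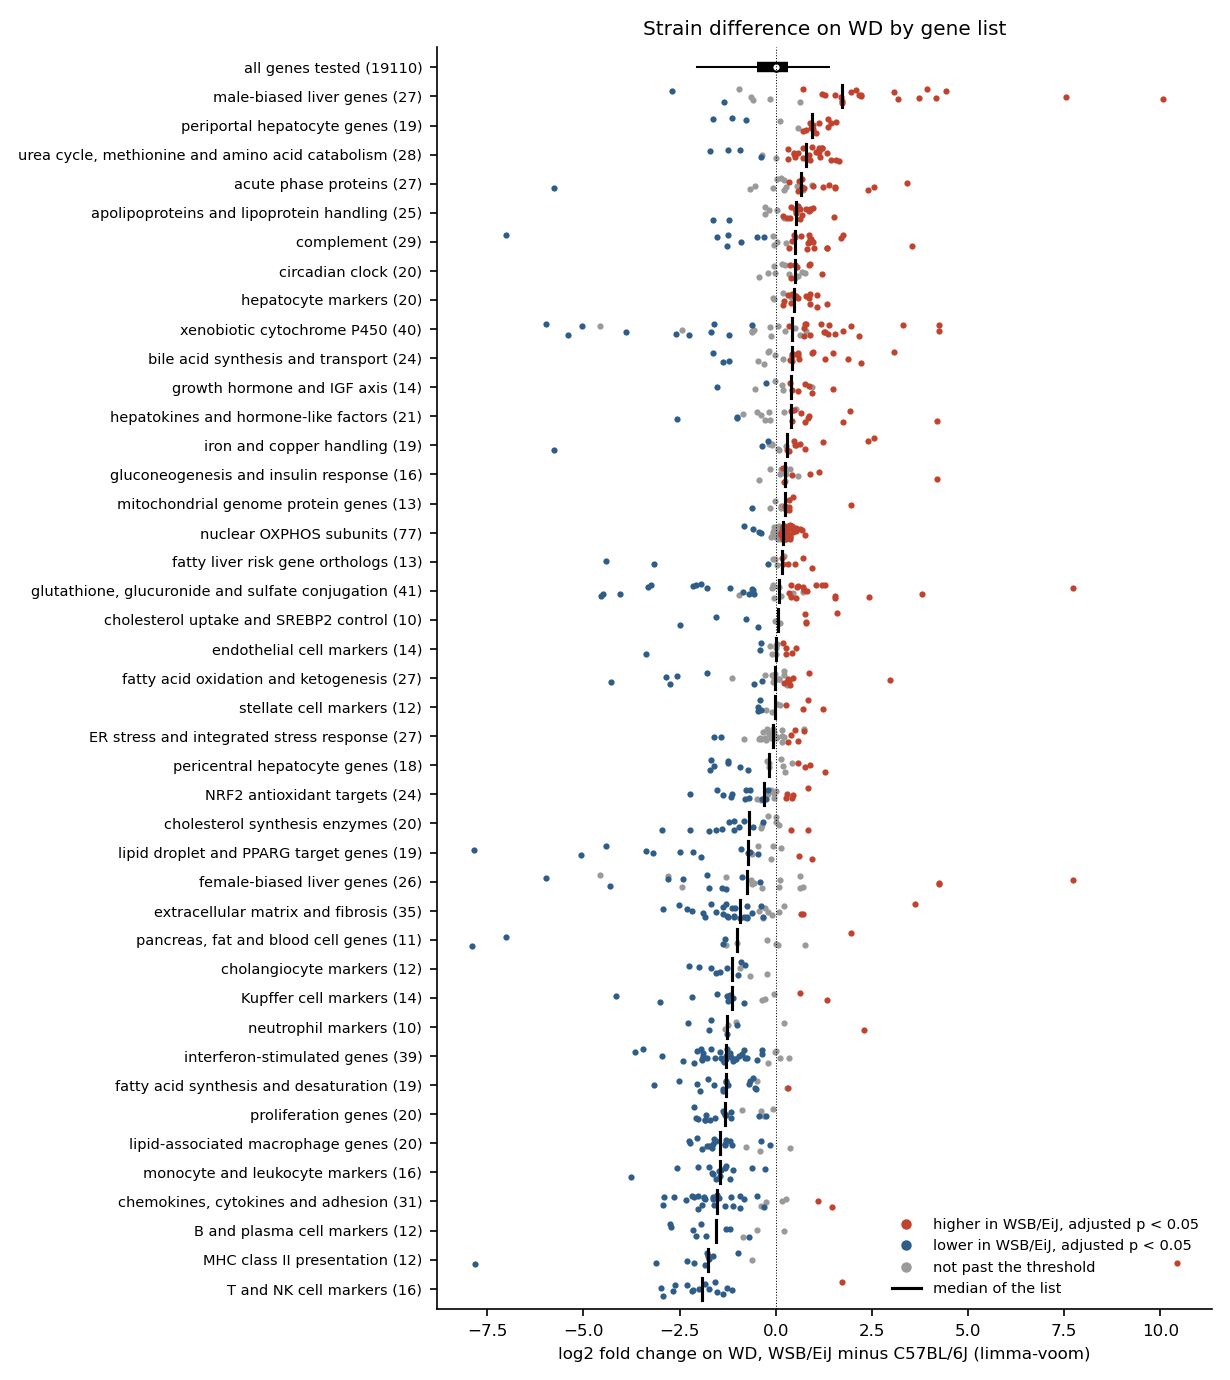
Strain difference on WD for the tested members of each gene list. The horizontal axis is the log2 fold change (WSB/EiJ minus C57BL/6J), each point is a gene, colored when its adjusted p was below 0.05, the black bar is the median of the list, and the number in parentheses is the number of genes tested. The top line shows the median of all 19110 genes at 0.01, its thick bar the middle 50% of genes and its thin line the middle 90%. Leukocyte, interferon, and fatty acid synthesis lists lie to the left and male-biased, periportal, and amino acid lists to the right.

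The largest increases in WSB/EiJ held secreted proteins, pheromone carriers, and enzymes of the hepatocyte. Mup12, a major urinary protein, ranged from 1153 to 6586 CPM (median 4255) in WSB/EiJ and from 0.612 to 28.9 CPM (median 4.77) in C57BL/6J, and all 6 WSB/EiJ mice lay above all 8 C57BL/6J mice (log2 fold change 10.07, standard error 0.45, adjusted p = 2.1e-34). Sult1e1, which sulfates estrogens, ranged from 40.5 to 164 CPM (median 126) in WSB/EiJ and from 0.0564 to 4.86 CPM (median 0.628) in C57BL/6J. The WSB/EiJ mice all lay above the C57BL/6J mice (log2 fold change 7.74, standard error 0.55, adjusted p = 5.5e-22). Ces2h, a carboxylesterase, ranged from 148 to 209.7 CPM (median 189.5) in WSB/EiJ and from 0.454 to 1.40 CPM (median 0.736) in C57BL/6J, with no overlap (log2 fold change 7.90, standard error 0.16, adjusted p = 9.2e-59). C1s2 and C1rb, extra copies of the complement proteases C1s and C1r, lie on chromosome 6 at 124624625 to 124636085 and 124570294 to 124581171 (GRCm38). C1s2 ranged from 48.4 to 54.2 CPM (median 51.2) in WSB/EiJ and from 0.0206 to 0.127 CPM (median 0.0661) in C57BL/6J (log2 difference 9.54, adjusted p = 5.7e-50). C1rb ranged from 15.1 to 22.1 CPM (median 16.3) in WSB/EiJ and from 0.0183 to 0.186 CPM (median 0.0937) in C57BL/6J (log2 difference 7.51, adjusted p = 1.1e-33). For both, all 6 WSB/EiJ mice lay above all 8 C57BL/6J mice. Of their close relatives, C1ra ranged from 339 to 439 CPM (median 362) in WSB/EiJ and from 168 to 275 CPM (median 192) in C57BL/6J (log2 difference 0.86, adjusted p = 5.3e-13). C1s1 ranged from 321 to 359.7 CPM (median 344) in WSB/EiJ and from 279.8 to 381 CPM (median 363) in C57BL/6J and did not pass the threshold (log2 difference -0.05, adjusted p = 0.52), and reads could have been divided between the copies. Ceacam2 (log2 fold change 8.21), the serine protease inhibitor Serpina3c (7.07), the citrate and succinate carrier Slc13a2 (6.53), Ren1 (8.45), which encodes renin, Nuggc (8.99), and Hmga1b (6.85) also stood among the 12 largest increases, each with no overlap between the strains. Mup, Ces2, Serpina3, Ceacam, Hmga1, and renin genes have close relatives or pseudogenes, and their values are uncertain where the counting could divide reads among them.

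The largest decreases in WSB/EiJ ended at or near 0. Fam83a and Mtnr1a, which encodes a melatonin receptor, had 0 reads in all 6 WSB/EiJ mice. Fam83a ranged from 2.41 to 26.5 CPM in C57BL/6J, and its median there, 11.4 CPM, was at least 145-fold higher than the floor of 3 reads in each WSB/EiJ library. Mtnr1a ranged from 3.50 to 11.4 CPM, and its median, 4.81 CPM, was at least 61.0-fold higher than that floor. H2-Eb1, the beta chain of the class II molecule I-E, ranged from 0.184 to 0.514 CPM (median 0.355) in WSB/EiJ and from 41.8 to 126 CPM (median 82.2) in C57BL/6J, with no overlap (log2 fold change -7.82, standard error 0.82, adjusted p = 9.5e-14). Cidea, a lipid droplet protein, ranged from 0 to 0.125 CPM (median 0.0717) in WSB/EiJ and from 2.40 to 36.7 CPM (median 15.7) in C57BL/6J, and all 6 WSB/EiJ mice lay below all 8 C57BL/6J mice (log2 fold change -7.85, standard error 1.18, adjusted p = 2.2e-08). Camk2b, a neuronal kinase subunit, ranged from 0.0244 to 0.150 CPM (median 0.0792) in WSB/EiJ and from 6.95 to 20.5 CPM (median 14.7) in C57BL/6J (log2 difference -7.52, adjusted p = 3.9e-13). Ephb2, an ephrin receptor, ranged from 0 to 0.146 CPM (median 0.0719) in WSB/EiJ and from 3.83 to 23.2 CPM (median 15.7) in C57BL/6J (log2 difference -7.50, adjusted p = 2.2e-09). Cebpe, a myeloid transcription factor, ranged from 0 to 0.128 CPM (median 0.0493) in WSB/EiJ and from 6.07 to 12.0 CPM (median 9.12) in C57BL/6J (log2 difference -7.16, adjusted p = 1.1e-22). In each of these, the lowest C57BL/6J mouse lay above the highest WSB/EiJ mouse.

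Genes with at most 3 reads in every mouse of a strain, against a median of at least 1 CPM in the other, numbered 33 in WSB/EiJ and 28 in C57BL/6J. Of the 33, 21 were protein coding and 2 pseudogenes, and of the 28, 8 were protein coding and 15 pseudogenes. In WSB/EiJ they included Nxpe2 (8.51 to 34.9 CPM in C57BL/6J), the transcription factor gene Olig1 (7.98 to 17.0 CPM), the olfactory receptor Olfr1033 (6.07 to 13.8 CPM), the interferon-inducible GTPase Tgtp1 (1.28 to 24.2 CPM), and Gabra3 (2.62 to 11.8 CPM), a subunit of the GABA receptor. In C57BL/6J they included H2-Ea-ps (8.91 to 21.0 CPM in WSB/EiJ), the alpha chain gene of I-E that is a pseudogene in the reference strain, Serpina3a (2.37 to 6.98 CPM), Ifi202b (1.79 to 3.67 CPM), Tdrd9 (0.917 to 5.36 CPM), and Pde6h (1.84 to 3.49 CPM). H2-Eb1 and H2-Ea-ps, whose products pair in I-E, thus went in opposite directions. A sequence difference that kept WSB/EiJ reads from mapping would also lower a value, and its part was not tested. Of 1464 pseudogenes tested, 356 were higher and 201 lower in WSB/EiJ. The part of read mapping in values higher in WSB/EiJ was not tested either.

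Neighboring members of gene families also went together or apart. These families were chosen after their values were seen. On chromosome 1 between 173350879 and 174031810 (GRCm38), the 14 tested genes of the Ifi200 family, whose products bind DNA and are induced by interferon, had 13 members lower and 1, Ifi202b, higher in WSB/EiJ, with a median log2 fold change of -3.37, the same with the 4 nearly silent members set to their bound. Mndal ranged from 0.158 to 0.333 CPM (median 0.197) in WSB/EiJ and from 17.7 to 27.0 CPM (median 20.5) in C57BL/6J. Ifi204 ranged from 1.34 to 3.15 CPM (median 1.91) in WSB/EiJ and from 16.9 to 25.2 CPM (median 21.0) in C57BL/6J. Aim2, an inflammasome sensor, differed less and ranged from 1.34 to 2.73 CPM (median 1.99) in WSB/EiJ and from 2.24 to 3.69 CPM (median 2.77) in C57BL/6J. Of 12 tested genes of the Serpina3 family on chromosome 12, 9 were higher and 3 lower. Serpina3k, the most abundant, ranged from 10162 to 14843 CPM (median 12661) in WSB/EiJ and from 2278 to 8553 CPM (median 5457) in C57BL/6J, while Serpina3g ranged from 1.18 to 3.09 CPM (median 1.83) in WSB/EiJ and from 14.9 to 33.0 CPM (median 28.9) in C57BL/6J. The Mup family on chromosome 4 had 20 members higher and 8 lower of 38 tested, and the families Cyp2c (6 higher and 5 lower of 15), Cyp2d (6 and 1 of 10), Cyp3a (5 and 2 of 11), and Ces (7 and 6 of 18) were also split. All of these families hold close paralogs, among which the counting could divide reads.

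Fatty acid synthesis was the metabolic list with the largest share of lower members. WSB/EiJ was lower for 16 of 19 tested genes and higher for 1 (Gckr), with a median log2 fold change of -1.30, beside 26.9% lower and 0.01 over all genes. Fasn, fatty acid synthase, ranged from 79.8 to 206 CPM (median 127) in WSB/EiJ and from 249 to 820.4 CPM (median 585) in C57BL/6J. All 6 WSB/EiJ mice lay below all 8 C57BL/6J mice (log2 fold change -2.04, standard error 0.28, adjusted p = 2.7e-09). Acacb, which makes the malonyl-CoA that restrains fatty acid entry into mitochondria, ranged from 19.3 to 26.3 CPM (median 20.2) in WSB/EiJ and from 68.8 to 150.3 CPM (median 141) in C57BL/6J, also with no overlap (log2 fold change -2.52, standard error 0.28, adjusted p = 9.9e-13). Scd1, the stearoyl-CoA desaturase, was among the most abundant transcripts and ranged from 6482 to 15489 CPM (median 8156) in WSB/EiJ and from 14550.5 to 44080.1 CPM (median 36242) in C57BL/6J, so the highest WSB/EiJ mouse lay above the lowest C57BL/6J mouse (log2 fold change -1.96, standard error 0.29, adjusted p = 1.8e-08). Pnpla3, a lipid droplet lipase whose human counterpart carries the best known fatty liver variant, ranged from 0.105 to 0.673 CPM (median 0.376) in WSB/EiJ and from 1.26 to 4.94 CPM (median 3.98) in C57BL/6J (log2 fold change -3.16, standard error 1.20, adjusted p = 0.021). Its call was lost without cohort 1 of C57BL/6J (log2 fold change -3.18), without cohort 6 of WSB/EiJ (-3.97), and without cohort 7 (-2.78). The transcription factor genes differed less. Srebf1 had a log2 fold change of -0.51 (adjusted p = 0.045) and Mlxipl, which encodes ChREBP, 0.30 (adjusted p = 0.072). On CD the same list had 9 members lower and 1 higher. Without cohort 6 of WSB/EiJ, 9 members were lower, without cohort 1 of C57BL/6J, 11, and with all genes of any count, 10.

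In cholesterol synthesis 12 of 20 enzymes were lower in WSB/EiJ and 2 (Ebp and Hsd17b7) higher, with a median of -0.70. Cyp51, lanosterol demethylase, ranged from 7.73 to 15.5 CPM (median 12.9) in WSB/EiJ and from 36.6 to 45.5 CPM (median 41.2) in C57BL/6J (log2 difference -1.74, adjusted p = 9.1e-10). Msmo1, which acts later in the pathway, ranged from 8.25 to 11.6 CPM (median 10.5) in WSB/EiJ and from 19.2 to 43.2 CPM (median 31.2) in C57BL/6J (log2 difference -1.55, adjusted p = 2.1e-05). For both, the strains did not overlap. Fdps and Idi1, which make the isoprenoid precursors, had log2 fold changes of -2.95 (adjusted p = 6.1e-05) and -2.23 (adjusted p = 5.1e-04). Of 10 genes of cholesterol uptake and SREBP2 control, 4 were higher and 4 lower, and without cohort 1 of C57BL/6J 3 and 2. Stard4, a carrier of cholesterol in the cytosol, ranged from 15.3 to 30.4 CPM (median 22.5) in WSB/EiJ and from 46.8 to 99.2 CPM (median 65.1) in C57BL/6J, with no overlap (log2 fold change -1.55, standard error 0.15, adjusted p = 1.3e-14). Lrp1, a receptor for lipoprotein remnants, and Scap, the SREBP escort protein, were higher (log2 fold change 0.79 and 0.79). The count of lower enzymes was 5 without cohort 6 of WSB/EiJ and 8 without cohort 1 of C57BL/6J. On CD 14 of the 20 enzymes were lower in WSB/EiJ and 1 higher, with a median of -0.86.

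Of 19 tested genes of the lipid droplet and of PPARG targets, 12 were lower and 2 higher in WSB/EiJ, with a median of -0.71. Pparg itself ranged from 0.342 to 1.27 CPM (median 1.15) in WSB/EiJ and from 9.23 to 36.0 CPM (median 23.1) in C57BL/6J. All 6 WSB/EiJ mice lay below all 8 C57BL/6J mice (log2 fold change -4.41, standard error 0.48, adjusted p = 3.7e-13). Cidec, which enlarges lipid droplets, ranged from 1.81 to 6.08 CPM (median 4.48) in WSB/EiJ and from 66.3 to 195 CPM (median 142) in C57BL/6J, with no overlap (log2 fold change -5.07, standard error 0.60, adjusted p = 1.5e-11). Vldlr, the VLDL receptor, ranged from 0.219 to 1.27 CPM (median 0.447) in WSB/EiJ and from 1.78 to 13.9 CPM (median 4.94) in C57BL/6J (log2 difference -3.37, adjusted p = 1.9e-08). The fatty acid transporter Cd36, chosen for plotting after its values were seen, ranged from 24.2 to 45.6 CPM (median 43.4) in WSB/EiJ and from 117 to 312 CPM (median 252) in C57BL/6J (log2 difference -2.48, adjusted p = 2.8e-17). The 2 higher genes were Plin5, which ties droplets to mitochondria, and Hsd17b13, a droplet enzyme linked to fatty liver in human genetics. Hsd17b13 ranged from 1049.8 to 1258 CPM (median 1156) in WSB/EiJ and from 418 to 781 CPM (median 650.0) in C57BL/6J. No WSB/EiJ mouse lay as low as any C57BL/6J mouse (log2 fold change 0.95, standard error 0.10, adjusted p = 6.2e-13). Among 13 orthologs of human fatty liver risk genes, 6 were higher and 3 lower, and the largest besides Pparg, Pnpla3, and Hsd17b13 was Trib1 (log2 fold change 0.70). Within C57BL/6J, 5 of the 19 droplet genes were lower in cohort 2 than in cohort 1, beside 1137 of all 19110 genes. Without cohort 1 of C57BL/6J, 12 droplet genes were lower and 1 higher in WSB/EiJ, while of the risk gene orthologs 1 was lower and 2 were higher, and without cohort 6 of WSB/EiJ 1 and 3.

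**Figure D2:**
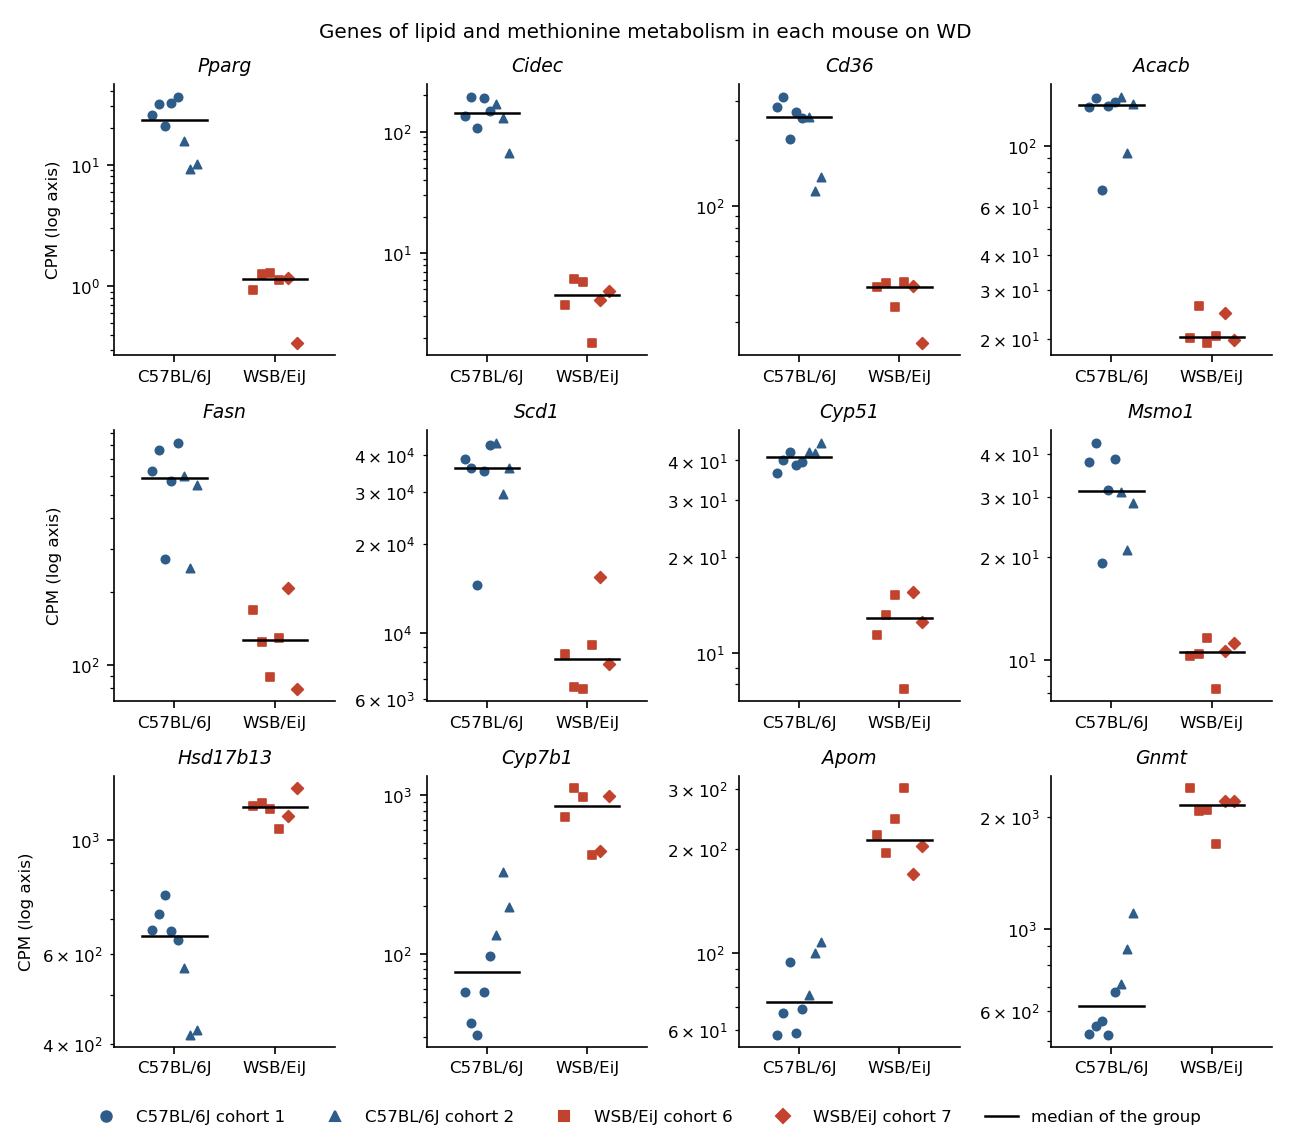
Levels of 12 genes of lipid and methionine metabolism in each mouse on WD. The vertical axes are CPM on a log scale, each point is a mouse with its shape giving the cohort, and the line is the median of the group. Pparg lies between 0.342 and 1.27 CPM in WSB/EiJ and between 9.23 and 36.0 CPM in C57BL/6J, and in 11 of the 12 genes, all but Scd1, the strains do not overlap.

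Fatty acid oxidation and ketogenesis did not move one way, with 8 genes higher and 7 lower of 27 and a median of -0.02. These shares, 29.6% and 25.9%, were near the 26.8% and 26.9% over all genes. Without cohort 6 of WSB/EiJ the counts were 3 and 3, without cohort 7, 4 and 7, without cohort 1 of C57BL/6J, 5 and 4, and without C57BL/6J mouse 3, 5 and 7. The fit of the mice of both strains alone gave 4 and 8, and upper-quartile normalization 5 and 8. Cyp4a14, an omega-hydroxylase and PPARA target, ranged from 8.13 to 50.4 CPM (median 18.5) in WSB/EiJ and from 238 to 835 CPM (median 268) in C57BL/6J, with no overlap (log2 fold change -4.29, standard error 0.91, adjusted p = 3.8e-05). Its paralog Cyp4a32 ranged from 104 to 316 CPM (median 223) in WSB/EiJ and from 18.1 to 32 CPM (median 25) in C57BL/6J, with WSB/EiJ above (log2 fold change 2.98, standard error 0.35, adjusted p = 1.5e-11). Vnn1, a pantetheinase that is also a PPARA target, ranged from 11.2 to 40.2 CPM (median 20.4) in WSB/EiJ and from 86.8 to 198 CPM (median 161) in C57BL/6J, with WSB/EiJ below (log2 fold change -2.85, standard error 0.37, adjusted p = 4.1e-10). Fgf21, a hormone released by the stressed liver, ranged from 1.07 to 2.19 CPM (median 1.95) in WSB/EiJ and from 6.54 to 20.3 CPM (median 10.4) in C57BL/6J and did not overlap either (log2 fold change -2.55, standard error 0.68, adjusted p = 9.2e-04). The Cyp4a genes are near-identical paralogs and their values are uncertain for that reason.

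Apolipoproteins and other genes of lipoprotein handling were higher in WSB/EiJ in 17 of 25 and lower in 2, with a median of 0.53. Apom, which carries sphingosine 1-phosphate on HDL, ranged from 169.8 to 301 CPM (median 213) in WSB/EiJ and from 58.1 to 108 CPM (median 72.2) in C57BL/6J. The strains did not overlap, and WSB/EiJ was the higher (log2 fold change 1.51, standard error 0.13, adjusted p = 8.7e-17). Apof, an inhibitor of cholesteryl ester transfer, ranged from 657 to 849 CPM (median 698) in WSB/EiJ and from 318 to 487 CPM (median 341) in C57BL/6J, with no overlap (log2 fold change 0.96, standard error 0.08, adjusted p = 9.2e-19). The 2 lower genes were Apoa4, which ranged from 104 to 356 CPM (median 219.8) in WSB/EiJ and from 271 to 1392 CPM (median 689) in C57BL/6J (log2 difference -1.64, adjusted p = 6.8e-05), and Pltp, the phospholipid transfer protein. Pltp ranged from 9.10 to 27.2 CPM (median 22.1) in WSB/EiJ and from 25.2 to 76.7 CPM (median 47.2) in C57BL/6J (log2 difference -1.23, adjusted p = 2.0e-06), and both overlapped between the strains. Among genes of bile acid synthesis and transport 15 of 24 were higher and 3 lower, with a median of 0.42, and without cohort 1 of C57BL/6J 11 and 5. Cyp7b1, of the alternative synthesis route, ranged from 419 to 1104 CPM (median 855) in WSB/EiJ and from 31.0 to 327 CPM (median 77.2) in C57BL/6J (log2 difference 3.07, adjusted p = 7.5e-12). Cyp2c70, which makes the muricholic acids of rodents, ranged from 1308 to 1732 CPM (median 1435) in WSB/EiJ and from 268 to 807 CPM (median 336) in C57BL/6J (log2 difference 1.88, adjusted p = 2.7e-13). The uptake carrier Slco1a1 ranged from 632 to 1220.0 CPM (median 953) in WSB/EiJ and from 72.4 to 470.1 CPM (median 223) in C57BL/6J (log2 difference 2.21, adjusted p = 3.2e-06). In all 3, every WSB/EiJ mouse lay above every C57BL/6J mouse. Cyp7b1 differed between the cohorts of C57BL/6J as well, at 57.6, 36.9, 31.0, 57.6, and 96.7 CPM in the 5 mice of cohort 1 and 132, 327, and 197 CPM in the 3 of cohort 2, still below the lowest WSB/EiJ mouse. Slco1a4 went the other way (log2 fold change -1.63, standard error 0.30, adjusted p = 3.3e-06).

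Amino acid catabolism, the urea cycle, and methionine metabolism were the metabolic list with the largest share of higher members, 22 of 28 with 4 lower and a median of 0.80, beside 26.8% higher over all genes. Gnmt, which disposes of methyl groups from S-adenosylmethionine, ranged from 1693 to 2388 CPM (median 2149.8) in WSB/EiJ and from 520.0 to 1107 CPM (median 621) in C57BL/6J. Every WSB/EiJ mouse lay above every C57BL/6J mouse (log2 fold change 1.65, standard error 0.12, adjusted p = 6.6e-21). Hal, the enzyme that begins histidine breakdown, ranged from 485 to 579.6 CPM (median 531) in WSB/EiJ and from 132 to 241 CPM (median 174) in C57BL/6J (log2 difference 1.57, adjusted p = 2.8e-17). Hpd, of tyrosine breakdown, ranged from 2923 to 3914 CPM (median 3425) in WSB/EiJ and from 977 to 2015 CPM (median 1377) in C57BL/6J (log2 difference 1.33, adjusted p = 1.3e-15), and neither overlapped. Sds, serine dehydratase, ranged from 145 to 313 CPM (median 259) in WSB/EiJ and from 59.3 to 194 CPM (median 78.4) in C57BL/6J, with overlapping strains (log2 fold change 1.45, standard error 0.23, adjusted p = 1.0e-07). Bhmt, which remethylates homocysteine with betaine, was lower and ranged from 170.0 to 448 CPM (median 333) in WSB/EiJ and from 367 to 1565 CPM (median 1247) in C57BL/6J (log2 fold change -1.70, standard error 0.26, adjusted p = 2.4e-08). Of 16 genes of gluconeogenesis and insulin response, 6 were higher and the other 10 did not pass the threshold. G6pc, glucose 6-phosphatase, ranged from 217 to 1546 CPM (median 623) in WSB/EiJ and from 129 to 435 CPM (median 267) in C57BL/6J and overlapped (log2 fold change 1.12, standard error 0.37, adjusted p = 0.0079). Without cohort 6 of WSB/EiJ 1 was higher, and with edgeR 8 were.

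Genes that mark the periportal zone of the lobule were higher in 14 of 19 and lower in 3. Those of the pericentral zone were higher in 4 and lower in 7 of 18 (22.2% and 38.9%, beside 26.8% and 26.9% over all genes). The periportal list shares Hal, Sds, Gls2, Arg1, Ass1, and Cps1 with the amino acid list. It also shares Pck1, Fbp1, Apoa4, and Hsd17b13 with other lists above, so these genes were counted more than once. Cyp2f2, a periportal enzyme, ranged from 1116 to 2328 CPM (median 1894) in WSB/EiJ and from 546 to 852 CPM (median 686) in C57BL/6J, with no overlap (log2 fold change 1.37, standard error 0.17, adjusted p = 5.8e-11). Aldh3a2, a pericentral aldehyde dehydrogenase, ranged from 136 to 382 CPM (median 319) in WSB/EiJ and from 643 to 1236 CPM (median 947) in C57BL/6J, also with no overlap (log2 fold change -1.70, standard error 0.23, adjusted p = 9.9e-10). Not every pericentral gene followed, since Cyp1a2 ranged from 248 to 629 CPM (median 522) in WSB/EiJ and from 59.3 to 281 CPM (median 215) in C57BL/6J and was higher in WSB/EiJ (log2 fold change 1.29, standard error 0.20, adjusted p = 7.7e-08). Hepatocyte markers as a whole were higher in 16 of 20, and the other 4 did not pass the threshold, with a median of 0.48, and the part of this shift in the metabolic lists was not tested. Albumin, the most abundant of them, did not pass the threshold (log2 fold change -0.07, adjusted p = 0.56), and the transcription factor gene Foxa3 had a log2 fold change of 1.06 (adjusted p = 1.5e-08). The count of higher hepatocyte markers was 9 without cohort 6 of WSB/EiJ and 10 without cohort 1 of C57BL/6J.

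Growth hormone, released in pulses in males, drives male-biased and restrains female-biased liver genes. Male-biased genes were higher in WSB/EiJ in 20 of 27 and lower in 2, with a median of 1.73. Mup17 ranged from 2757 to 6493 CPM (median 4752) in WSB/EiJ and from 7.34 to 126 CPM (median 18.6) in C57BL/6J (log2 difference 7.54, adjusted p = 1.8e-30). Hsd3b5, a steroid reductase, ranged from 92.1 to 162 CPM (median 112) in WSB/EiJ and from 0.290 to 147 CPM (median 17.5) in C57BL/6J. Elovl3, a fatty acid elongase, ranged from 311 to 654 CPM (median 429) in WSB/EiJ and from 32.6 to 185 CPM (median 86.5) in C57BL/6J (log2 difference 2.23, adjusted p = 8.0e-04). Mup17 and Elovl3 did not overlap and Hsd3b5 did, and the log2 fold change of Hsd3b5, 4.16 here (adjusted p = 6.6e-05), was 1.44 with edgeR, 1.42 with DESeq2, and 0.43 without cohort 1 of C57BL/6J, where it was not called, and 6.21 without cohort 2. Within C57BL/6J, 13 of the 27 were higher in cohort 2 than in cohort 1, with a median difference of 1.48. Of all 19110 genes, 967 were higher in cohort 2. Without cohort 1, 15 were higher and 6 lower in WSB/EiJ, and without cohort 2, 21 were higher. Female-biased genes were lower in 10 of 26 and higher in 3, beside 26.9% lower over all genes, and without cohort 6 of WSB/EiJ or without cohort 1 of C57BL/6J the lower ones numbered 4 and 5. Abcd2, a peroxisomal transporter, ranged from 0.999 to 4.56 CPM (median 2.67) in WSB/EiJ and from 7.43 to 32.4 CPM (median 18.3) in C57BL/6J, with no overlap (log2 fold change -2.80, standard error 0.52, adjusted p = 3.5e-06), whereas Sult1e1, given above, was higher. Of 14 genes of the growth hormone and IGF axis 7 were higher and 2 lower, among them Igfbp2 (log2 fold change 1.50, standard error 0.21, adjusted p = 1.8e-09), which was higher in every WSB/EiJ mouse, and Igfbp3 (log2 fold change -1.53, standard error 0.16, adjusted p = 3.0e-14), which was lower in every one. Igf1 ranged from 575 to 954 CPM (median 639) in WSB/EiJ and from 327 to 510.2 CPM (median 415) in C57BL/6J (log2 difference 0.77, adjusted p = 3.1e-08).

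Among 40 xenobiotic cytochromes P450 and their receptors, 18 were higher and 10 lower in WSB/EiJ. Cyp2c38 ranged from 0.641 to 18.7 CPM (median 3.26) in WSB/EiJ and from 57.1 to 155 CPM (median 93.7) in C57BL/6J, with no overlap (log2 fold change -5.03, standard error 0.55, adjusted p = 8.1e-13). Cyp2b9, a female-biased gene, ranged from 0 to 2.05 CPM (median 0.114) in WSB/EiJ and from 0.929 to 121 CPM (median 6.04) in C57BL/6J, with overlap (log2 difference -5.98, adjusted p = 0.013). Its spread within C57BL/6J was wide, since 3 mice of cohort 1 had 69.6, 121, and 42.0 CPM and the highest of the other 5 had 6.06 CPM. Conjugating enzymes had 17 higher and 15 lower of 41 (41.5% and 36.6%). Gsta1, a glutathione transferase, ranged from 0.122 to 0.436 CPM (median 0.230) in WSB/EiJ and from 1.14 to 14.4 CPM (median 6.62) in C57BL/6J (log2 difference -4.49, adjusted p = 2.2e-06), and Ugt1a5, a glucuronosyl transferase that shares exons with its neighbors, ranged from 0.564 to 4.00 CPM (median 1.58) in WSB/EiJ and from 6.84 to 41.7 CPM (median 30.3) in C57BL/6J (log2 difference -4.06, adjusted p = 1.6e-10). NRF2 targets were lower in 12 of 24 and higher in 5, and without cohort 7 of WSB/EiJ in 13 and 3. Srxn1, sulfiredoxin, ranged from 25.7 to 31.4 CPM (median 26.9) in WSB/EiJ and from 46.3 to 115 CPM (median 80.9) in C57BL/6J. All 6 WSB/EiJ mice lay below all 8 C57BL/6J mice (log2 fold change -1.51, standard error 0.17, adjusted p = 1.8e-12). Pgd, of the pentose phosphate pathway, ranged from 20.1 to 29.0 CPM (median 24.8) in WSB/EiJ and from 42.9 to 71.8 CPM (median 56.7) in C57BL/6J (log2 difference -1.17, adjusted p = 1.1e-09), while Nqo1, the classical target, was among the 5 higher.

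Nuclear genes for subunits of oxidative phosphorylation were mostly higher in WSB/EiJ, by small amounts. Of 77 tested, 50 were higher and 4 lower in WSB/EiJ, with a median of 0.20. Sdhb, of complex II, ranged from 195 to 271 CPM (median 251) in WSB/EiJ and from 102 to 164 CPM (median 149) in C57BL/6J (log2 difference 0.76, adjusted p = 6.2e-16). Ndufa12, of complex I, ranged from 33.8 to 41.4 CPM (median 38.2) in WSB/EiJ and from 19.9 to 27.9 CPM (median 23.4) in C57BL/6J (log2 difference 0.68, adjusted p = 1.2e-14), and both were higher in all 6 WSB/EiJ mice than in all 8 C57BL/6J mice. The count of higher subunits was 38 with upper-quartile normalization, which moved the median of all genes to -0.05, and 65 were higher on CD. Of 13 protein genes of the mitochondrial genome 7 were higher and 1 lower. mt-Co1 ranged from 22925 to 36027 CPM (median 32389.7) in WSB/EiJ and from 16936 to 27116 CPM (median 24491) in C57BL/6J, with overlap (log2 fold change 0.36, standard error 0.08, adjusted p = 4.5e-05). Without cohort 1 of C57BL/6J or without cohort 6 of WSB/EiJ, 2 mitochondrial genes were higher, and without C57BL/6J mouse 3, 4 were. Genes of ER stress and the integrated stress response passed the threshold in 7 of 27, 5 higher and 2 lower, beside 53.7% of all genes. Within C57BL/6J 10 of these 27 were higher in cohort 2 than in cohort 1, beside 967 of all 19110 genes. Without cohort 1 the split was 2 higher and 9 lower, without cohort 2, 9 and 4, and with upper-quartile normalization, 4 and 5. Without cohort 6 of WSB/EiJ 2 were higher, and in the fit of both strains alone 3 were.

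More secreted defense proteins were higher than lower in WSB/EiJ. Of 27 acute phase genes 15 were higher and 1 lower, and of 29 complement genes 18 were higher and 7 lower. Orm3, an orosomucoid, ranged from 146 to 323 CPM (median 166) in WSB/EiJ and from 1.45 to 35.4 CPM (median 23.1) in C57BL/6J, with no overlap (log2 fold change 3.42, standard error 0.32, adjusted p = 1.2e-15). Mt1, metallothionein, ranged from 254 to 1287 CPM (median 437) in WSB/EiJ and from 35.7 to 296 CPM (median 85.4) in C57BL/6J, with overlap (log2 fold change 2.40, standard error 0.51, adjusted p = 4.9e-05). C4a, which is close in sequence to C4b, ranged from 504 to 749 CPM (median 532) in WSB/EiJ and from 22.8 to 96.4 CPM (median 49.4) in C57BL/6J, with no overlap (log2 fold change 3.54, standard error 0.31, adjusted p = 1.9e-17). C6 and C8b of the membrane attack complex were higher as well (log2 fold change 1.71 and 1.75). The lower complement genes included C1qc, made by macrophages, which ranged from 17.1 to 46.1 CPM (median 30.3) in WSB/EiJ and from 73.2 to 111 CPM (median 84.3) in C57BL/6J (log2 difference -1.54, adjusted p = 2.8e-11), and Cfd, adipsin, which is made by adipocytes. Cfd ranged from 0 to 4.39 CPM (median 0.194) in WSB/EiJ and from 2.80 to 149.6 CPM (median 27.8) in C57BL/6J, and it was highest in the WSB/EiJ mouse that also had the most Adipoq (log2 difference -7.03, adjusted p = 7.8e-06). WSB/EiJ mouse 4 alone had high inducible acute phase transcripts, such as Saa1 at 10890.0 CPM against 46.4 to 305 CPM in the other 5. Without that mouse 14 acute phase genes were higher and 4 lower, and without cohort 1 of C57BL/6J 8 were higher and 2 lower. Of 19 genes of iron and copper handling, 10 were higher and 3 lower. Hamp, which encodes hepcidin, ranged from 232 to 769.6 CPM (median 498) in WSB/EiJ and from 57 to 833 CPM (median 213) in C57BL/6J, with overlap (log2 fold change 1.23, standard error 0.44, adjusted p = 0.013) and it was not called with edgeR (0.71), DESeq2 (0.68), without cohort 7 of WSB/EiJ (1.00), or without cohort 1 of C57BL/6J (0.62). Its paralog Hamp2 was nearly absent in WSB/EiJ at 0.0249 to 0.299 CPM, against 1.32 to 7.34 CPM. Among 21 hepatokines 10 were higher and 3 lower. Fetub, fetuin B, ranged from 800.0 to 2217 CPM (median 1095) in WSB/EiJ and from 253 to 477 CPM (median 328) in C57BL/6J, with no overlap (log2 fold change 1.75, standard error 0.13, adjusted p = 2.1e-20), and Enho, which encodes adropin, ranged from 9.83 to 34.6 CPM (median 18.9) in WSB/EiJ and from 0.465 to 6.10 CPM (median 0.710) in C57BL/6J, also with no overlap (log2 fold change 4.20, standard error 0.44, adjusted p = 1.4e-13).

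Interferon-stimulated genes were lower in WSB/EiJ in 34 of 39, beside 26.9% of all genes, with a median log2 fold change of -1.30. The other 5 did not pass the threshold. With edgeR 34 were lower, and with DESeq2 35. Across all other settings and with either strain reduced to 1 cohort, 28 to 35 were lower and at most 1 higher. On CD 29 of the 39 were lower and 1 higher, with a median of -0.98. A change of the strain difference with diet passed the threshold in 0 of the 39, beside 2.58% of all genes. Cxcl9, a chemokine induced by interferon gamma, ranged from 2.77 to 5.15 CPM (median 3.81) in WSB/EiJ and from 17.9 to 99.9 CPM (median 38.1) in C57BL/6J. The highest WSB/EiJ mouse lay below the lowest C57BL/6J mouse (log2 fold change -3.46, standard error 0.41, adjusted p = 1.8e-11). Gbp3, a guanylate-binding protein, ranged from 1.34 to 2.44 CPM (median 1.85) in WSB/EiJ and from 8.98 to 26.7 CPM (median 14.8) in C57BL/6J (log2 difference -2.96, adjusted p = 6.4e-12). Oas3, an oligoadenylate synthetase, ranged from 0.447 to 1.39 CPM (median 0.951) in WSB/EiJ and from 3.21 to 6.13 CPM (median 4.95) in C57BL/6J (log2 difference -2.40, adjusted p = 8.0e-12). Gbp6 ranged from 0.998 to 2.32 CPM (median 1.63) in WSB/EiJ and from 3.10 to 15.7 CPM (median 7.26) in C57BL/6J (log2 difference -2.11, adjusted p = 1.1e-07). Each of these was lower in every WSB/EiJ mouse than in any C57BL/6J mouse. Within C57BL/6J 12 of the 39 were higher in cohort 2 than in cohort 1, beside 967 of all 19110 genes.

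These genes are switched on through the interferon-stimulated response element, which STAT and IRF proteins bind. The letters GAAANNGAA, a minimal form of that element, were searched on both strands in 300 bases around each start site, 250 before and 50 after it, in RefSeq promoters of GRCm38.p6. Of 27025 genes with such a window 2638 (9.76%) held a match, and of the 39 list members 30 had a window and 22 of these (73.3%) a match. Among the 22, 19 were lower in WSB/EiJ, with a median log2 fold change of -1.23, and among the 8 without a match all 8 were lower, with a median of -1.37. The stretches below are parts of these windows and show matches in 6 members that were lower. Among them are Ifit1bl1 (log2 fold change -3.67), Cxcl10 (-1.90), and Gbp2 (-1.79). Matching letters are in capitals, and overlapping matches are run together. They are the reference sequence, that of C57BL/6J, and the sequence of WSB/EiJ at these places was not used here.
Ifit1bl1 (chr19:34602018-34602116, minus strand): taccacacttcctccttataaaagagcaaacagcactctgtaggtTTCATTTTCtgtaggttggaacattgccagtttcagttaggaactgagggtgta
Cxcl9 (chr5:92328201-92328299, minus strand): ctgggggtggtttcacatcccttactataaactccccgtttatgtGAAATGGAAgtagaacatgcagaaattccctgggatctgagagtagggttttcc
Gbp3 (chr3:142559961-142560043, plus strand): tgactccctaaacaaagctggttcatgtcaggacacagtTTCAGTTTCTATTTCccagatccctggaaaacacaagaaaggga
Oas3 (chr5:120777675-120777773, minus strand): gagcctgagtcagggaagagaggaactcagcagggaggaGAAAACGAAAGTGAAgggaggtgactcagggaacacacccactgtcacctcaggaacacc
Cxcl10 (chr5:92349049-92349139, minus strand): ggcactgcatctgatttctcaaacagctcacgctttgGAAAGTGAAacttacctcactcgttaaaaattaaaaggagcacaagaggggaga
Gbp2 (chr3:142620560-142620658, plus strand): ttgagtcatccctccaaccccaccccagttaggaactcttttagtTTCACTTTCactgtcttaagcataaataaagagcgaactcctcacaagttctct
In Gbp3 and Oas3 the stretch shown held 2 overlapping matches, and in the others 1. A match is a run of letters and does not show that a protein binds there.

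Chemokines, cytokines, and adhesion molecules were lower in 25 of 31 and higher in 2 (Ccl9 and Ccl24), with a median of -1.52. Over all genes 26.9% were lower and 26.8% higher. Ccl5, made by T cells, ranged from 0.359 to 0.624 CPM (median 0.465) in WSB/EiJ and from 2.11 to 8.98 CPM (median 3.39) in C57BL/6J, with no overlap (log2 fold change -2.93, standard error 0.41, adjusted p = 3.5e-09). Tlr7, a sensor of single-stranded RNA, ranged from 0.368 to 1.50 CPM (median 0.938) in WSB/EiJ and from 5.2 to 8.64 CPM (median 6.61) in C57BL/6J, with no overlap (log2 fold change -2.91, standard error 0.26, adjusted p = 1.1e-16). Cx3cr1, the fractalkine receptor of monocyte-derived cells, ranged from 0.316 to 1.30 CPM (median 0.888) in WSB/EiJ and from 2.71 to 12.3 CPM (median 4.89) in C57BL/6J (log2 difference -2.64, adjusted p = 8.6e-08). MHC class II genes were lower in 10 of 12 and higher in 1, H2-Ea-ps. H2-Ab1 ranged from 12.6 to 26.5 CPM (median 19.5) in WSB/EiJ and from 48.5 to 140.0 CPM (median 102) in C57BL/6J, with no overlap (log2 fold change -2.31, standard error 0.27, adjusted p = 9.8e-12). Genes of lipid-associated macrophages were lower in 17 of 20, and edgeR and DESeq2 gave 16. Spp1, osteopontin, which cholangiocytes also make, ranged from 20.3 to 25.7 CPM (median 21.6) in WSB/EiJ and from 37.3 to 358 CPM (median 98.8) in C57BL/6J, with no overlap (log2 fold change -2.26, standard error 0.32, adjusted p = 3.4e-09). Anxa2 ranged from 10.2 to 16.5 CPM (median 14.6) in WSB/EiJ and from 28.2 to 110.2 CPM (median 73.2) in C57BL/6J (log2 difference -2.22, adjusted p = 4.3e-10). These gaps were present on CD too. There 20 chemokine, 11 class II, and 15 macrophage genes were lower and 3, 1, and 0 higher. The medians on CD were -1.24, -1.73, and -1.67. A change of the strain difference with diet passed the threshold in 0, 0, and 1 of their genes.

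Markers of the cell types that carry such genes differed too. Monocyte and leukocyte markers were lower in WSB/EiJ in 16 of 16, and their summed level was 184 to 369 CPM in WSB/EiJ and 422 to 783 CPM in C57BL/6J. T and NK cell markers were lower in 15 of 16 and higher in 1, Cd4, which macrophages also carry, with a summed level of 6.90 to 12.3 CPM in WSB/EiJ and 11.0 to 28.5 CPM in C57BL/6J. B and plasma cell markers were lower in 9 of 12. Kupffer cell markers were lower in 9 of 14 and higher in 2 (Slc40a1 and Cd163), with a summed level of 408 to 892 CPM in WSB/EiJ and 798 to 1320.1 CPM in C57BL/6J. Clec4f, the marker most particular to Kupffer cells, ranged from 39.0 to 101 CPM (median 75.4) in WSB/EiJ and from 57.6 to 113 CPM (median 83.8) in C57BL/6J and did not pass the threshold (log2 fold change -0.28, adjusted p = 0.26), while Folr2 ranged from 0 to 0.184 CPM (median 0.107) in WSB/EiJ and from 0.917 to 2.35 CPM (median 1.71) in C57BL/6J (log2 difference -4.15, adjusted p = 3.7e-15). Marco, a scavenger receptor, ranged from 0.684 to 4.61 CPM (median 1.51) in WSB/EiJ and from 4.54 to 88.5 CPM (median 12.4) in C57BL/6J (log2 difference -3.01, adjusted p = 3.0e-05). Markers of cholangiocytes were lower in 9 of 12, among them Krt7, which ranged from 0.359 to 0.698 CPM (median 0.605) in WSB/EiJ and from 0.856 to 4.72 CPM (median 1.50) in C57BL/6J, and C57BL/6J mouse 3 had the highest value, 4.72 CPM. Genes of proliferation were lower in 16 of 20. Mki67 ranged from 0.948 to 2.90 CPM (median 1.56) in WSB/EiJ and from 4.03 to 15.2 CPM (median 5.71) in C57BL/6J, with no overlap (log2 fold change -2.01, standard error 0.42, adjusted p = 2.5e-05). Neutrophil markers were lower in 5 of 10 and higher in 1. Genes of pancreas, fat, and blood cells were lower in 4 of 11 and higher in 1, the pancreatic elastase Cela1. Adipoq, which defines adipocytes, was at most 1.92 CPM in WSB/EiJ and 1.53 CPM in C57BL/6J. Endothelial markers were mixed, 5 higher and 3 lower of 14 (35.7% and 21.4%), not far from the 26.8% and 26.9% over all genes. Among them Lyve1, a hyaluronan receptor of sinusoidal and lymphatic endothelium, stood apart from the rest. It ranged from 1.29 to 6.09 CPM (median 2.79) in WSB/EiJ and from 22.9 to 35.3 CPM (median 28.5) in C57BL/6J (log2 fold change -3.38, standard error 0.29, adjusted p = 1.8e-17). The endothelial counts were 3 higher and 4 lower without C57BL/6J mouse 3 and with upper-quartile normalization, and 3 and 3 without either cohort of C57BL/6J and in the fit of both strains alone. Without cohort 6 of WSB/EiJ 4 were lower and the other 10 did not pass the threshold. Stellate cell markers had 4 higher and 4 lower of 12 (33.3% each), also not far from the shares over all genes. Other counts of markers moved with the mice admitted. Without cohort 6 of WSB/EiJ 2 cholangiocyte markers and 9 genes of proliferation were lower, and without cohort 1 of C57BL/6J 5 cholangiocyte markers were, as in the fit of both strains alone. Among genes with at least 10 reads in every mouse fewer were tested, and 2 of 4 B cell markers, 10 of 13 genes of proliferation, and 15 of 19 chemokine genes were lower, while Cd4 was the 1 T and NK cell marker left. On CD 15 of 16 monocyte and leukocyte markers and 15 of 16 T and NK cell markers were lower. So were 11 of 12 B and plasma cell markers, 10 of 14 Kupffer cell markers (1 higher), and 17 of 20 genes of proliferation. A change of the strain difference with diet passed the threshold in 0 genes of these lists. The part of the cell type markers in the interferon, chemokine, and class II lists was not tested.

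**Figure D3:**
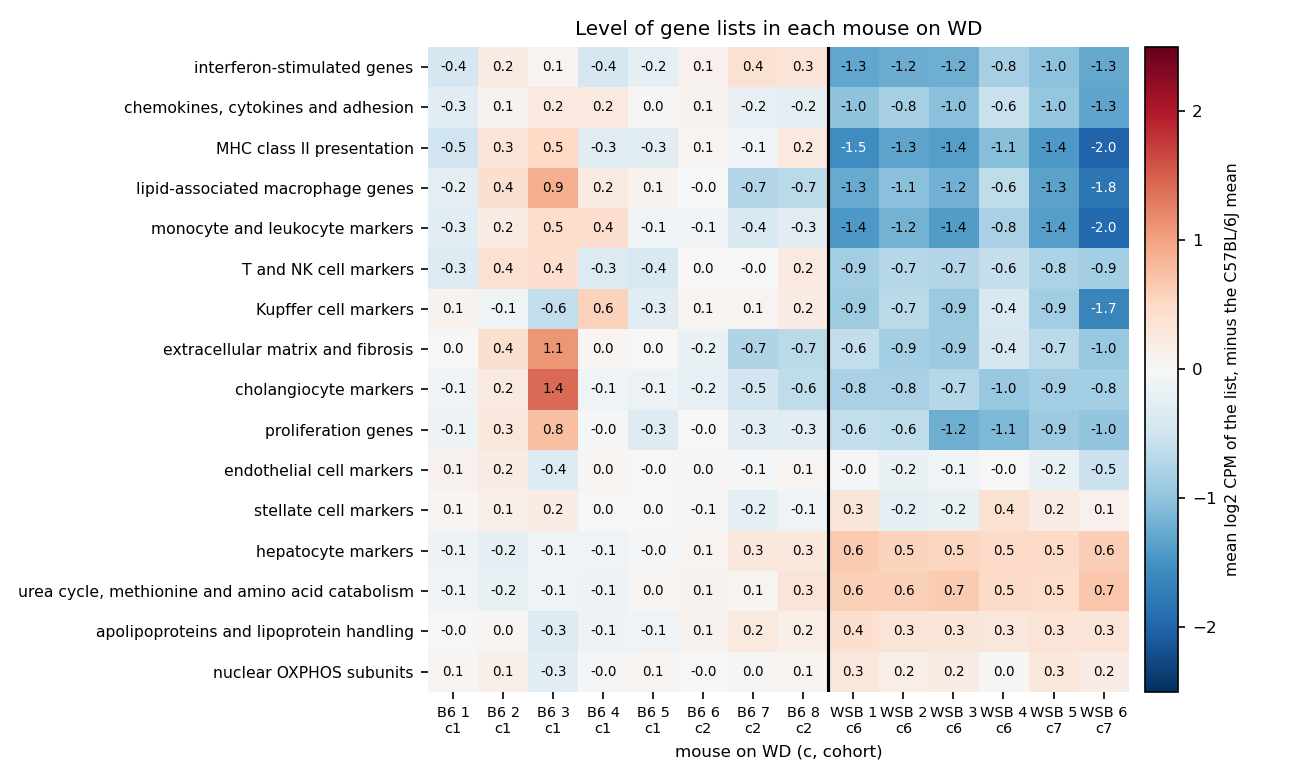
Level of 16 gene lists in each mouse on WD. Each cell is the mean log2 CPM over the tested genes of a list minus the mean of the 8 C57BL/6J (B6) mice, columns are mice with their cohort (c), and the black line parts the strains. WSB/EiJ (WSB) mice sit between -2.0 and -0.8 for monocyte and leukocyte markers, and C57BL/6J mouse 3 stands out at 1.1 for extracellular matrix and 1.4 for cholangiocyte markers.

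Extracellular matrix genes were lower in WSB/EiJ in 25 of 35 and higher in 3, with a median of -0.93. Over all genes 26.9% were lower and 26.8% higher. The summed level of the list was not lower. It was 3707 to 5376 CPM (median 3932) in WSB/EiJ and 3016 to 3819 CPM (median 3142) in C57BL/6J, with overlap. On CD 13 of the 35 genes were lower and 5 higher, with a median of -0.37. Thbs1, thrombospondin, ranged from 0.820 to 2.06 CPM (median 0.971) in WSB/EiJ and from 4.10 to 16.8 CPM (median 8.41) in C57BL/6J, with no overlap (log2 fold change -2.92, standard error 0.42, adjusted p = 6.0e-09). Mmp13, a collagenase, ranged from 0.421 to 0.823 CPM (median 0.550) in WSB/EiJ and from 1.38 to 7.38 CPM (median 3.99) in C57BL/6J (log2 difference -2.51, adjusted p = 4.6e-07), and Col15a1, of vessel basement membranes, ranged from 1.05 to 2.83 CPM (median 1.86) in WSB/EiJ and from 3.82 to 23.1 CPM (median 10.0) in C57BL/6J (log2 difference -2.32, adjusted p = 3.9e-07). Col5a2 went the other way and ranged from 42.0 to 229 CPM (median 166) in WSB/EiJ and from 3.86 to 35.7 CPM (median 11.2) in C57BL/6J, with WSB/EiJ above (log2 fold change 3.62, standard error 0.30, adjusted p = 2.3e-18). This list differed within C57BL/6J as well, where 21 of the 35 genes were lower in cohort 2 than in cohort 1 and 1 higher. The median was -0.87, and of all 19110 genes 1137 were lower in cohort 2 and 967 higher. Without cohort 1 of C57BL/6J 12 were lower and 5 higher in WSB/EiJ, without cohort 2, 29 and 3, and without C57BL/6J mouse 3, 22 and 3. Col1a1 in C57BL/6J was 54.4, 100.1, 164, 53.7, and 57.7 CPM in cohort 1 and 41.5, 14.0, and 19.0 CPM in cohort 2, and in WSB/EiJ it ranged from 6.36 to 16.3 CPM, so that the strains met.

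The cohorts allow a check within each strain. In C57BL/6J on WD 2104 genes (11.0%) differed between cohorts 2 and 1 with limma-voom, 967 higher and 1137 lower in cohort 2. In WSB/EiJ 0 genes (0%) differed between cohorts 7 and 6 with limma-voom, with 672 at an unadjusted p below 0.05, and edgeR also called 0, with 775. That check set 2 mice against 4, and the check in C57BL/6J 3 against 5. With so few mice, 0 calls do not show that the cohorts of WSB/EiJ were alike. With the C57BL/6J mice of cohort 2 alone, 7796 genes differed between the strains, and with those of cohort 1 alone, 10523. With the WSB/EiJ mice of cohort 7 alone the number was 7248, and with those of cohort 6 alone, 9086.

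Strain differences were compared on both diets, in groups that shared no mouse. C57BL/6J had 3 mice of cohort 1 and 5 of cohort 2 on CD, and 5 and 3 on WD. The part of this uneven split in changes with diet was not tested. On CD 10275 genes (53.8%) were DEGs. Of these 7891 were DEGs in the same direction on WD, which was 76.9% of the WD calls and 76.8% of the CD calls, and 50 were DEGs in opposite directions. The difference between the strains itself differed between diets for 493 genes (2.58%), and on WD it was shifted toward WSB/EiJ in 271 and toward C57BL/6J in 222. That number rested on the fit, at 110 in a fit of the mice of these strains alone, 651 with edgeR, 783 with DESeq2, and 1187 with sample quality weights. Of the 110, 107 were among the 493. The number was 800 without C57BL/6J mouse 3, 109 without cohort 6 of WSB/EiJ, and 999 without cohort 1 of C57BL/6J.

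**Figure D4:**
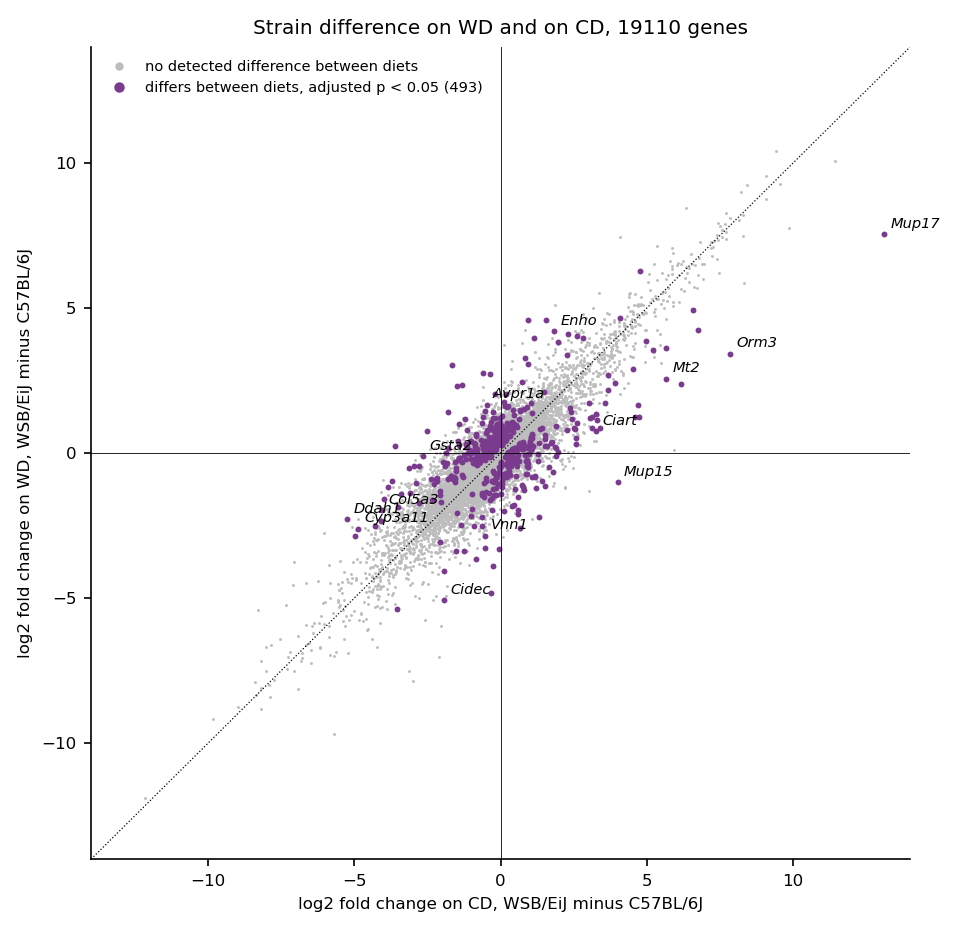
Strain difference on WD against that on CD for 19110 genes. Both axes are log2 fold changes (WSB/EiJ minus C57BL/6J), the dotted line marks equal differences, and purple points are the 493 genes whose difference changed between diets at an adjusted p below 0.05. Most genes lie along the line, Mup17, Orm3, and Mup15 far below it, and Enho and Ddah1 above it.

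Single genes of cholesterol and fatty acid metabolism were among those whose strain gap was wider on WD. The strain difference was shifted toward C57BL/6J on WD in 2 of 10 genes of cholesterol uptake and SREBP2 control. The same held for 3 of 19 genes of fatty acid synthesis. Of the 20 cholesterol synthesis enzymes 0 were shifted that way and 1 toward WSB/EiJ. Stard4 had -0.30 on CD (adjusted p = 0.084) and -1.55 on WD on the log2 scale, a difference of -1.25 (adjusted p = 7.5e-05). Acacb went from -0.92 to -2.52 (difference -1.61, adjusted p = 0.0083). WSB/EiJ was lower on WD than on CD in both genes. C57BL/6J was lower as well for Stard4, from 72.8 to 168 CPM on CD against 46.8 to 99.2 CPM on WD. The diet difference of C57BL/6J for Acacb did not pass the threshold (-0.40, adjusted p = 0.25). For Acacb, C57BL/6J mouse 2 on CD had 29.9 CPM, and the other C57BL/6J mice on CD had 125 to 307 CPM. On WD, C57BL/6J had 68.8 to 150.3 CPM of Acacb. A fit without that CD mouse was not run. Cidec on CD ranged from 2.34 to 7.58 CPM (median 3.95) in WSB/EiJ and from 6.03 to 68.8 CPM (median 13.4) in C57BL/6J, and its medians on WD were 4.48 and 142 CPM (difference -3.15, adjusted p = 0.026). Vnn1 followed the same pattern, with a strain difference of -0.54 on CD and -2.85 on WD (difference -2.31, adjusted p = 0.0036). Lyve1 differed by -1.51 on CD and -3.38 on WD (difference -1.86, adjusted p = 0.0020).

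In other genes the difference was shifted toward WSB/EiJ on WD. Cyp3a11, the main drug-metabolizing P450, on CD ranged from 70.7 to 209 CPM (median 99.8) in WSB/EiJ and from 2179 to 5503 CPM (median 2816) in C57BL/6J. On WD WSB/EiJ rose to between 215 and 872 CPM, still below every C57BL/6J mouse, and the strain difference went from -4.89 to -2.60 (difference 2.28, adjusted p = 4.9e-06). Ddah1, which breaks down methylarginines, went from -5.24 to -2.29 in the same way (difference 2.96, adjusted p = 5.7e-15), and Col5a3 from -4.05 to -1.96 (adjusted p = 5.0e-06). Gsta2 was lower in WSB/EiJ on CD (-2.64) and did not pass the threshold on WD (-0.11, adjusted p = 0.78; difference 2.54, adjusted p = 0.0018). Avpr1a, a vasopressin receptor, was higher in WSB/EiJ on WD (1.67, adjusted p = 8.0e-08) and had -0.48 on CD (adjusted p = 0.056). Slc13a5, the citrate carrier of hepatocytes, turned from -1.22 on CD to 1.17 on WD (difference 2.39, adjusted p = 0.0082).

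Some genes that were near 0 in C57BL/6J on CD were higher there on WD. Orm3 in C57BL/6J ranged from 0.178 to 1.13 CPM on CD and from 1.45 to 35.4 CPM on WD, where C57BL/6J mouse 3 held the lowest value (strain difference 7.83 on CD and 3.42 on WD, adjusted p of the difference = 0.0011). Mup17 in C57BL/6J ranged from 0.0168 to 2.08 CPM on CD and from 7.34 to 126 CPM on WD, and Mup15 from 0 to 1.71 and from 1.64 to 62.5 CPM. The strain difference of Mup17 changed by -5.57 in log2 units from CD to WD (adjusted p = 2.0e-04), and that of Mup15 turned from 4.00 to -1.0 (adjusted p of the change = 0.0025). Enho was lower on WD instead, ranging in C57BL/6J from 6.11 to 19.3 CPM on CD and from 0.465 to 6.10 CPM on WD, again with mouse 3 apart at 6.10 CPM, and the strain difference rose by 2.37 in log2 units (adjusted p = 0.0024). Esm1, an endothelial proteoglycan, was lower in WSB/EiJ on WD (-2.60) and had 0.67 on CD (adjusted p of the difference = 9.7e-04).

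Clock genes were the list in which the strain difference changed most often with diet, in 8 of 20 against 2.58% of all genes tested. On WD 7 were higher in WSB/EiJ (35.0%, beside 26.8% of all genes) and 13 did not pass the threshold (edgeR called 9 and DESeq2 8). Without cohort 6 or without cohort 7 of WSB/EiJ 4 were higher, in the fit of both strains alone 5, with sample quality weights 11, and without WSB/EiJ mouse 4, 10. On CD 13 were higher and 3 lower. Bhlhe41, a repressor, on CD ranged from 7.98 to 16.1 CPM (median 11.6) in WSB/EiJ and from 0.334 to 5.82 CPM (median 1.42) in C57BL/6J, and on WD from 5.88 to 12.6 CPM (median 10.9) in WSB/EiJ and from 2.58 to 8.95 CPM (median 3.92) in C57BL/6J (difference -1.84, adjusted p = 0.0032). Per3 went from a strain difference of 2.5 on CD to 0.88 on WD (adjusted p of the change = 0.027). On CD it ranged from 29.3 to 94.6 CPM in WSB/EiJ and from 2.31 to 48.5 CPM in C57BL/6J, with overlap. Within C57BL/6J on CD, Per3 was 2.31 to 3.03 CPM in cohort 1 and 6.77 to 48.5 CPM in cohort 2. Ciart, another repressor, went from 3.27 to 0.75 (adjusted p = 0.012) and Tef from 1.53 to 0.49 (adjusted p = 0.049). Ciart on CD ranged from 6.84 to 20.3 CPM in WSB/EiJ and from 0.255 to 9.68 CPM in C57BL/6J, also with overlap. WSB/EiJ mouse 4 held the lowest Ciart value of its group on WD, 2.46 CPM against 10.7 to 21.2 CPM. The hour at which each liver was taken was not used here.

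CLOCK and BMAL1 bind the E-box CACGTG. Of the 27025 genes with a promoter window, 2187 (8.09%) held these letters, which read the same on both strands, and of 17 clock genes with a window 5 (29.4%) did. Of the 8 changed genes 6 had a window, and 3 of them held it, shown here with the letters in capitals as the reference sequence.
Tef (chr15:81802501-81802596, plus strand): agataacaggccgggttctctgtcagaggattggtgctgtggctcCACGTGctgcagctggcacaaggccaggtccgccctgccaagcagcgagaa
Ciart (chr3:95882229-95882317, minus strand): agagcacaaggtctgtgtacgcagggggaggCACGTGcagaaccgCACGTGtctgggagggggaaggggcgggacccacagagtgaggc
Bhlhe41 (chr6:145865523-145865618, minus strand): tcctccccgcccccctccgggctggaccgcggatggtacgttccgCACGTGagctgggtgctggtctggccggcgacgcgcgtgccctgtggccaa
The stretch shown for Ciart held 2 matches and the other stretches 1.

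**Figure D5:**
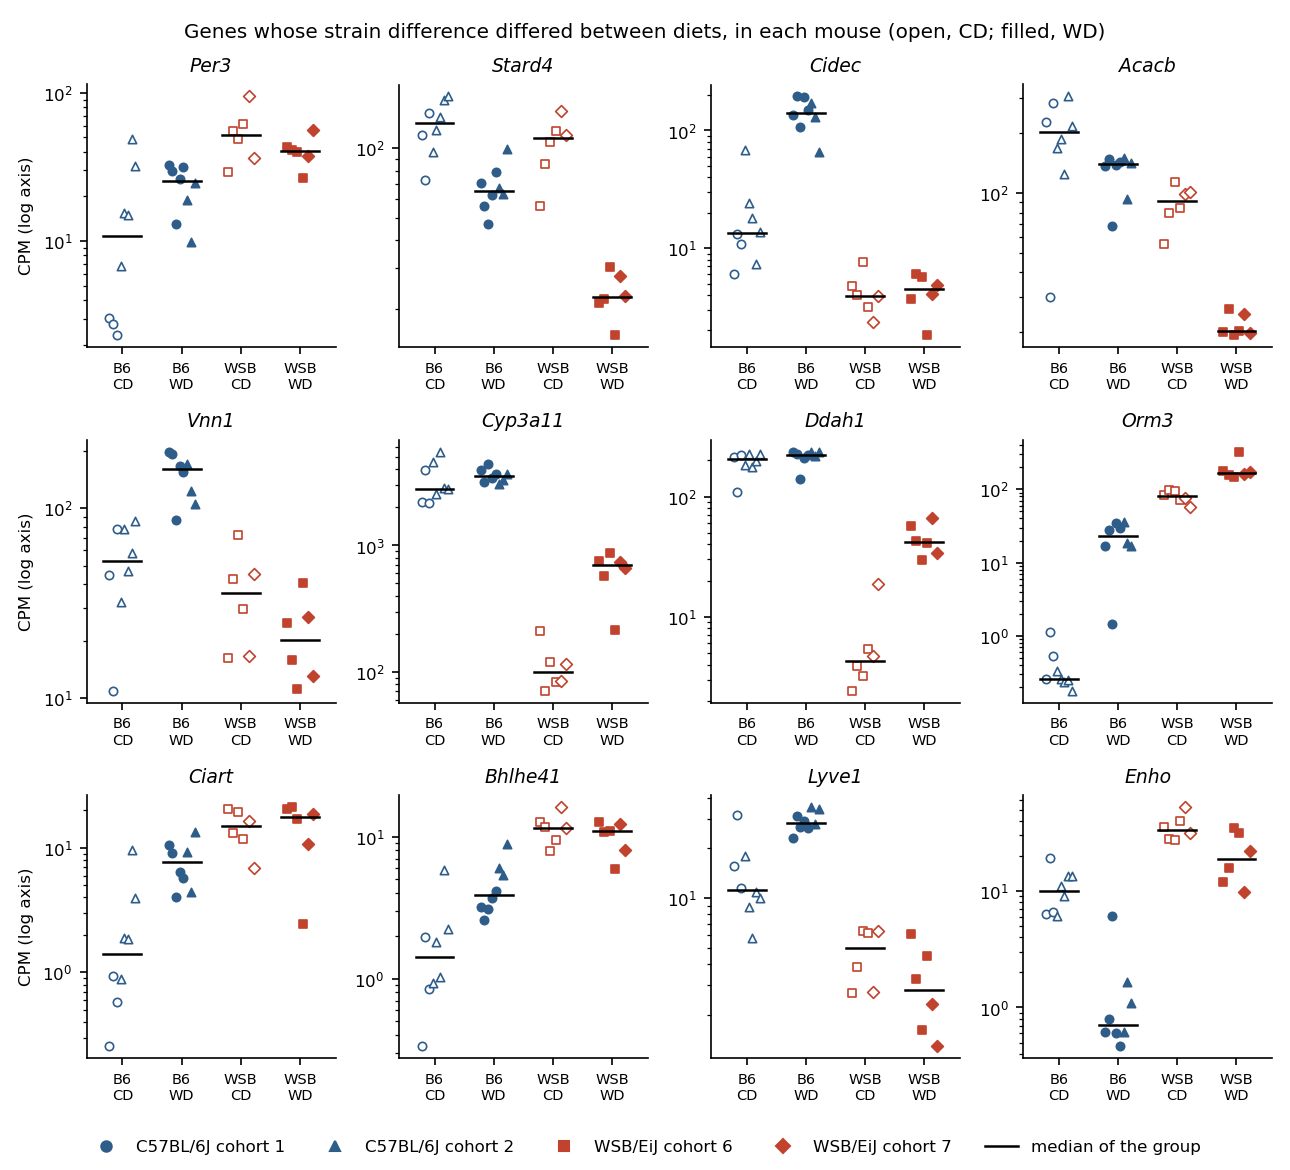
Levels of 12 genes whose strain difference differed between diets, in each mouse of both strains (B6, C57BL/6J; WSB, WSB/EiJ) on CD (open) and WD (filled). The vertical axes are CPM on a log scale, shapes give the cohort, and the line is the median of the group. Stard4 is lowest in WSB/EiJ on WD, Cidec is raised in C57BL/6J on WD alone, and Cyp3a11 and Ddah1 in WSB/EiJ are above their CD level.

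Several genes named above share their place with another gene in the annotation, and the sources used here do not state whether the counting separated strands. Genes with a partner on the opposite strand were Anxa2 (Gm16144), Apoa4 (Gm10680, Gm47528), Bhlhe41 (Gm43909), Bhmt (Gm15622), C1s1 (Gm16567), Col15a1 (Gm12426), Cx3cr1 (Gm33858), Cxcl10 (Art3), Cyp2f2 (Gm15883), Cyp51 (Akap9), Elovl3 (Pitx3), Enho (Dnaic1), Folr2 (Gm10602), Gbp2 (Mir6381), Hamp2 (Gm44662), Idi1 (Gm48574), Krt7 (Gm671), Mlxipl (Gm43500), Olig1 (Gm15966), Pde6h (Arhgdib), Pltp (Ctsa), Scap (5830462I19Rik), Sds (Gm15690, Plbd2), Slc13a2 (Slc13a2os), Slc13a5 (1700051A21Rik), Srebf1 (Rai1), Tef (Gm17597), Thbs1 (Gm29233), Ugt1a5 (Gm20528), and mt-Co1 (mt-Ts1). Genes with a partner on the same strand were Fdps (Gm43738), Gbp6 (Gm43302), Mndal (Gm38050, Ifi203), Pnpla3 (Gm49513), Serpina3k (Serpina3m), Spp1 (Gm42793), Srebf1 (Mir6922), Tgtp1 (Gm12185), and Ugt1a5 (Ugt1a1, Ugt1a10, Ugt1a2, Ugt1a6a, Ugt1a6b, Ugt1a7c, Ugt1a8, Ugt1a9). Reads from such partners cannot be told apart in these counts.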

How the data were processed

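Liver RNA was sequenced with the SMARTER mRNA-Seq kit on a BGISEQ-500, and the authors checked reads with FastQC, mapped them untrimmed with STAR (2.7.1a per the submitters' processing notes) to GRCm38 (mm10), and deposited raw counts per gene for each mouse. Whether counting used strand and which annotation release was counted are not given in the sources used here. Symbols and coordinates came from a GENCODE annotation of GRCm38, and promoter windows from RefSeq. All deposited count columns were mapped to a mouse (0 columns not used), and the 4 rows that count unmapped, multimapping, ambiguous, and outside-gene reads were left out of library sizes.

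Genes were kept by filterByExpr (minimum count 10) and fitted with limma-voom (limma 3.58.1, edgeR 4.0.16, R 4.3.3) on TMM-normalized counts of all 93 mice, with 1 mean for each of 14 groups of strain and diet. The contrasts were WSB/EiJ minus C57BL/6J on WD, the same on CD, and their difference, and p-values were adjusted by Benjamini-Hochberg over all genes tested, with a threshold of 0.05. No other factor was fitted. The cohorts of these strains do not overlap, so cohort could not be separated from strain on a diet. Both diets occurred in each cohort of these strains, and a fit of the diet change with cohort was not run. Cohorts within a strain were compared in a fit with 1 mean per strain, diet, and cohort. The procedure was tested on simulated data. Levels (CPM) are the deposited counts scaled to a common library size by TMM. The labels do not say more of the replicates than that they are separate mice. The depth of 42719337 reads or more on genes puts the floor of 3 counts at 0.0789 CPM in WSB/EiJ and 0.0619 CPM in C57BL/6J, and such floors cover counting error only.

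Genes were named by these rules: label checks, the 12 largest increases and decreases without overlap at a mean log2 CPM of at least 1, up to 4 of the largest differences in each of 42 lists at a mean log2 CPM of at least 0, the 8 largest changes of the strain difference in each direction, and up to 6 genes per strain with at most 3 counts in every mouse. Not every gene of the rules is named. Adipoq, Alb, C1ra, C1s1, Cd36, Ciart, Clec4f, Col1a1, Cxcl10, Elovl3, Gbp2, Igf1, Mlxipl, Saa1, Srebf1, Tef, the members of gene families, and list members named without a value beside a count were chosen after their values were seen. The members and lists were chosen with earlier results of these data known. Of 948 list entries 6 matched no gene. Alternatives were edgeR's quasi-likelihood test, DESeq2 (1.42.0), upper-quartile normalization, other count filters, a fit of the 2 strains alone, sample quality weights, RNA integrity number (RIN) as a covariate, and each cohort left out, and, chosen after seeing the data, leaving out 1 mouse of each strain.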

Additional observations from a re-analysis of the deposited data

Results flagged for a closer look

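Among the genes named above, the highest or lowest mouse of a group stood apart from its nearest neighbor in 44 of 294 groups of values, CPM or shares of read classes, on WD (15.0%), by Dixon's ratio of that gap to the range of the group at the 95% level. For independent, normally distributed values chance would flag about 1 in 20 groups, here 14.7. These values come from the same mice and are not independent, so 14.7 is only a rough guide. C57BL/6J mouse 3 held 16 of the flags and WSB/EiJ mouse 4 held 12. C57BL/6J mouse 3 held the highest value of Adipoq (0.867), Aim2 (0.536), Col15a1 (0.533), Col5a2 (0.589), Enho (0.789), Gabra3 (0.655), Krt7 (0.798), Mki67 (0.707), Olfr1033 (0.618), Ren1 (0.725), and Sds (0.690) and the lowest value of C1s1 (0.793), Ddah1 (0.721), Nxpe2 (0.663), Sdhb (0.571), and mt-Co1 (0.566), with the ratio in parentheses. WSB/EiJ mouse 4 held the highest value of Apof (0.698), C1rb (0.797), Fetub (0.761), Lrp1 (0.816), Mlxipl (0.735), Mt1 (0.755), Orm3 (0.833), Saa1 (0.976), Slc13a5 (0.633), and Thbs1 (0.789) and the lowest value of Gsta2 (0.627) and Tef (0.702), with the ratio in parentheses. C57BL/6J mouse 2 held the highest value of Apoa4 (0.568). C57BL/6J mouse 4 held the highest value of Marco (0.619). C57BL/6J mouse 6 held the highest value of H2-Ea-ps (1.0) and Sult1e1 (0.842). C57BL/6J mouse 7 held the highest value of Mt1 (0.571) and Mup15 (0.551). WSB/EiJ mouse 1 held the highest value of Cyp4a14 (0.696). WSB/EiJ mouse 3 held the highest value of Adipoq (0.928) and Cfd (0.924). WSB/EiJ mouse 5 held the highest value of Cyp2b9 (0.880), Cyp2c38 (0.754), Hamp2 (0.904), and Scd1 (0.707) and the lowest value of Nuggc (0.663). WSB/EiJ mouse 6 held the highest value of C4a (0.719) and the lowest value of Pparg (0.628).

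The strain difference changed between diets, at an adjusted p below 0.05 in the limma-voom contrast of the differences, for the following genes named above. The log2 difference on WD minus that on CD was positive for Avpr1a (2.15), Col5a3 (2.09), Cyp3a11 (2.28), Ddah1 (2.96), Enho (2.37), Gsta2 (2.54), Hal (0.67), and Slc13a5 (2.39), and negative for Acacb (-1.61), Anxa2 (-1.59), Bhlhe41 (-1.84), C4a (-1.68), Cd36 (-1.14), Ciart (-2.53), Cidec (-3.15), Col5a2 (-2.04), Esm1 (-3.26), Igfbp3 (-0.97), Lyve1 (-1.86), Mup15 (-5.00), Mup17 (-5.57), Orm3 (-4.41), Per3 (-1.63), Stard4 (-1.25), Tef (-1.04), Ugt1a5 (-2.12), and Vnn1 (-2.31).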

How the results depend on the processing

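The number of strain DEGs on WD was 10267 and lay between 7248 and 10732 under all settings but one, namely 19484 with all genes of any count, and the number on CD was then 18463 against 10275. The number of DEGs shared in direction by the diets was 7891, with 13708 for all genes of any count and 4695 without cohort 6 of WSB/EiJ. The number of genes whose strain difference differed between diets was the least stable: 493 here, 783 with DESeq2, 110 in the fit of the 2 strains alone, 1187 with sample quality weights, 109 without cohort 6 and 317 without cohort 7 of WSB/EiJ, and 999 without cohort 1 of C57BL/6J. Leaving out C57BL/6J mouse 3 or WSB/EiJ mouse 4, an alternative chosen after seeing the data, gave 489 to 800 such genes, 9784 to 10070 DEGs on WD, and 7597 to 7826 in the same direction on both diets. The cause of these shifts was not tested, other than that more genes or fewer mice entered the fit.

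Of 588 list counts under all alternatives 547 stayed within 1.5 times the count given and 41 did not, and most of the latter are given beside their lists. Of 1956 log2 fold changes of named genes, 1887 kept their direction and side of the threshold, 41 lost the call, 16 gained it, and 12 changed sign. Without 1 cohort or another, the calls of Aim2, Bhlhe41, Cyp2b9, Fgf21, G6pc, Hamp, Hamp2, Hsd3b5, Idi1, Krt7, Mup15, Per3, Pnpla3, Slc13a5, Srebf1, and Trib1 were lost. Without WSB/EiJ mouse 4 those of Mup15 (-0.73) and Srebf1 (-0.51) were, and with all genes of any count that of Scd1 (-1.55). None of those 12 belonged to a gene called on WD. Gsta2 (-0.11) turned to 0.11 with edgeR, 0.077 with DESeq2, 0.12 with quality weights, 0.56 without cohort 6 of WSB/EiJ, 0.32 without cohort 1 of C57BL/6J, and 0.35 without WSB/EiJ mouse 4. Alb turned to 0.073 without cohort 6 of WSB/EiJ and to 0.062 without WSB/EiJ mouse 4, Adipoq to -0.35 without cohort 7 of WSB/EiJ and to -0.25 without cohort 1 of C57BL/6J, Mlxipl to -0.10 without cohort 1 of C57BL/6J, and Saa1 to -0.11 without WSB/EiJ mouse 4. Without C57BL/6J mouse 3, Gsta2 was at -0.054, Alb at -0.098, and Saa1 at 0.75. No paired analysis was possible because replicate numbers in the labels only count mice within a group, which come from different strains and cohorts. The share of unmapped reads has no value among mapped reads, so that alternative was run for the other 3 read classes, where the direction did not change. Depth limits genes near the floor: of the 53465 genes listed, 35.7% could be tested.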
